A study of Mus musculus with 22 samples.

Results

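C3H 10T1/2 cells, a mouse mesenchymal cell line that can be turned into adipocytes in culture, carried a double mutant of the DNA methyltransferase DNMT3A (labelled W330R-R181E) and were sequenced at day 4 and day 6 of adipogenic differentiation. The members are the 4 RNA-seq libraries of this genotype at those days, 2 replicates at day 4 and 2 replicates at day 6, of 22 libraries in the series, defined by genotype and day. The count columns of these libraries spell the second substitution R181A where the sample labels spell it R181E. How the mutation was brought into the cells, and whether each genotype is 1 clone, is not given in the sources used here. The series also holds WT and W330R cells, undifferentiated and at days 2, 4 and 6, and the double mutant at day 2.

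All differentiated cells received serum-containing DMEM with 0.5 mM isobutylmethylxanthine, 1 uM dexamethasone, 5 ug/mL insulin and 5 uM troglitazone for the first 2 days. Insulin at 5 ug/mL was kept afterwards, in medium renewed every 2 days. The step from day 4 to day 6 therefore lies wholly in the insulin medium, for the double mutant as for WT and W330R. The summed counts were 15642443 and 22710246 at day 4, and 40904296 and 8859501 at day 6 (replicates 1 and 2), and the last is the shallowest library of the series. Day 6 replicate 1 stood apart in its interferon-stimulated genes, which are given with and without it where they are described. A total of 3 counts, taken as the floor of detection, corresponds to between 0.0733 and 0.339 CPM (counts scaled to a common library size) in these libraries, which covers counting error only. Nothing in the labels says that the 2 replicates are separate cultures, so the p-values measure the spread between libraries, which may be technical.

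During adipogenesis a hormone mix first induces the early regulators C/EBPbeta and C/EBPdelta, which bring up PPARgamma and C/EBPalpha, and these switch on the genes of lipid uptake, triglyceride storage and adipokine secretion. Dexamethasone acts through the glucocorticoid receptor, isobutylmethylxanthine raises cyclic AMP and troglitazone is a ligand of PPARgamma. DNMT3A writes new DNA methylation, and W330 lies in its PWWP domain, which reads histone H3 methylated at lysine 36. In bulk RNA, fewer cells of a type and less RNA per cell cannot be told apart.

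Between day 4 and day 6 of the double mutant, 3 of 14520 tested genes passed an adjusted p of 0.05 in the fit of all 22 libraries (edgeR quasi-likelihood test, Benjamini-Hochberg). One rose (0.00689% of the genes tested) and 2 fell (0.0138%). *Ly6c1*, which encodes a GPI-anchored surface protein of the Ly6 family, stood at 0.973 and 2 CPM at day 4 and at 19.9 and 8.23 CPM at day 6. The log2 fold change was 3.23 ± 0.48 (SE, n = 2 against 2, adjusted p = 0.043). This SE, like the others given here, rests on a spread estimated over all 22 libraries, not on these 4 alone. The log2 changes of *Ly6c1* within replicates 1 and 2 were 4.22 and 1.99. *Perp*, a membrane protein of cell junctions and a p53 target, stood at 18.1 and 18.6 CPM at day 4 and at 5.46 and 8.45 CPM at day 6. It fell by 1.43 ± 0.20 on the log2 scale (SE, adjusted p = 0.043). *Fam107a*, an actin-binding protein induced by stress, stood at 303 and 525 CPM at day 4 and at 122 and 118 CPM at day 6, a fall by 1.79 ± 0.27 on the log2 scale (SE, adjusted p = 0.043). For each of these genes both libraries of one day lay apart from both of the other, and on the log2 scale the gap between the days was wider than that between replicates. With the 4 libraries of the double mutant fitted alone, none of the 3 was called. The calls also rest on single libraries. Without day 4 replicate 1 the call of *Fam107a* remained, without day 4 replicate 2 or day 6 replicate 1 none of the 3 remained, and without day 6 replicate 2 *Ly6c1* and *Perp* remained.

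The time course places these genes on longer slopes. *Ly6c1* was at 52.2 and 50.6 CPM in undifferentiated WT cells and at 0.328 and 0.693 CPM in the double mutant at day 2, below all its day 4 and day 6 values. *Perp* ran from 45.9 and 39.9 CPM at day 2 downwards, and *Fam107a* from 532 and 859 CPM. WT passed the same test for all 3 genes between day 4 and day 6, with log2 fold changes of 3.31, -1.62 and -1.49 (adjusted p = 0.012, 0.0042 and 0.027). W330R gave 1.49, -1.20 and -1.80 (adjusted p = 0.48, 0.070 and 0.059). Of the 31-base words in *Ly6c1* transcripts, 46.8% also occur in transcripts of other genes (GENCODE M21), so its counts could be shared with relatives. Its neighbour in sequence *Ly6c2* stood at 0.0608 and 0.261 CPM at day 4 and at 2.02 and 0.65 CPM at day 6, and was singled out after its values were seen.

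**Figure D1:**
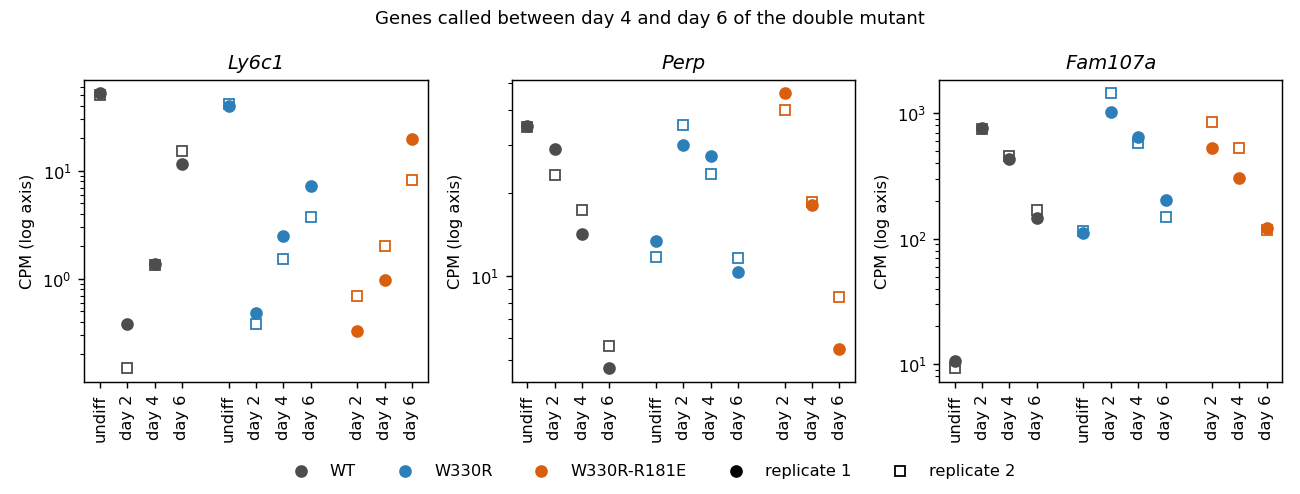
CPM (log axis) of the 3 genes called between day 4 and day 6, in all 22 libraries, by genotype and day; filled circles are replicate 1 and open squares replicate 2. In the double mutant (orange) Ly6c1 stands higher at day 6 (19.9 and 8.23 CPM) than at day 4, and Perp and Fam107a stand lower.

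The replicate numbers were also used as pairs, day 6 minus day 4 within replicate 1 and within replicate 2. Across the 14520 genes the log2 changes of the pairs correlated with Pearson r = 0.142, and 50.7% of genes changed with the same sign. The corresponding values were 0.338 and 63.3% in WT and 0.329 and 63.6% in W330R. Genes are not independent replicates, and these are descriptions of the libraries. Part of the difference between replicates was carried from day to day. Across genes it correlated with r = 0.461 between days 2 and 4, 0.203 between days 4 and 6 and 0.1 between days 2 and 6. The corresponding values were 0.438, 0.402 and 0.3 in WT and 0.343, 0.242 and 0.131 in W330R. Some genes differed far more between replicates than between days. *Col2a1*, the main collagen of cartilage, stood at 3883 CPM in replicate 1 and 655 CPM in replicate 2 at day 4, and at 4468 and 1094 CPM at day 6. The summed CPM of 16 chondrocyte markers was 6494 and 1588 at day 4 and 7109 and 2108 at day 6, so the replicates differed more than the days.

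When the replicate number within each genotype was added to the fit for days 2 to 6 (the paired fit), 227 genes passed, 113 higher at day 6 (0.778% of the genes tested) and 114 lower (0.785%). All 3 genes above were among them, and 116 of the 227 changed by more than 1 on the log2 scale. Of the genes called higher, 96 had both day 6 libraries above both day 4 libraries, and of those called lower, 101 had both below. Over all genes tested these shares were 14.9% and 13.6%. The genes were called on these same libraries, so their separation follows largely from the selection and is not separate support. The paired count rests on individual libraries. It was 37 without day 4 replicate 1, 60 without day 4 replicate 2, 184 without day 6 replicate 1 and 259 without day 6 replicate 2, and 36, 41, 79 and 112 of the 227 genes remained. The genes given below as called passed the paired fit and not the edgeR fit without pairs, unless said otherwise. Other settings called some of the 227 too, 81 with DESeq2 without pairs and 10 with a replicate term shared by all genotypes.

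**Figure D2:**
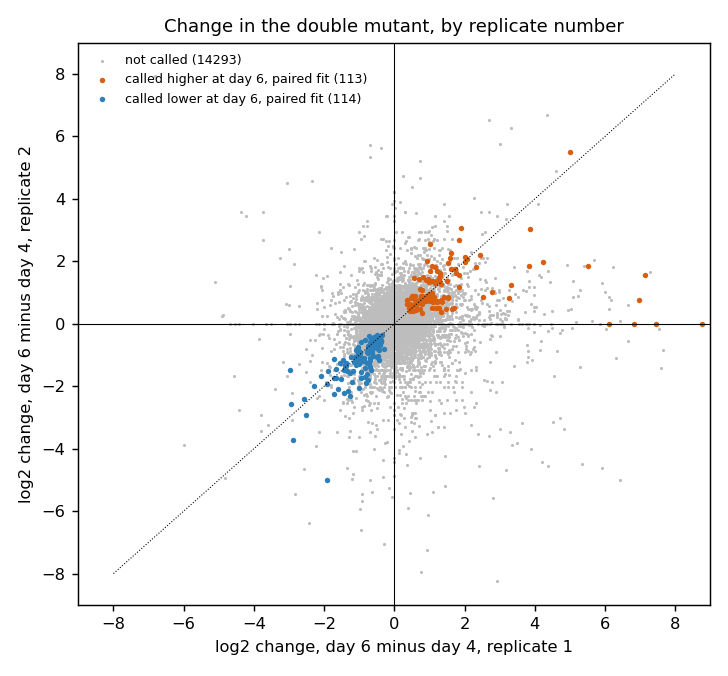
Log2 change from day 4 to day 6 of every tested gene in replicate 1 (x axis) and replicate 2 (y axis) of the double mutant. The cloud shows little common slope (r = 0.142), the 113 genes called higher (orange) and 114 called lower (blue) in the paired fit lie in the quadrants of equal sign, and a few called genes on the horizontal line were at 0 in replicate 2.

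Genes induced by glucocorticoid receptor were the lowest of the 45 lists by median. All 16 listed genes were tested, and 8 were called lower and none higher, beside 0.785% and 0.778% of all genes. Both day 6 libraries lay below both day 4 libraries for 10 of the 16, beside 13.6% of all genes. The median log2 change was -0.92 from the fit without pairs, -0.68 within replicate 1 and -1.07 within replicate 2, and over all genes tested it was -0.000196. *Fkbp5*, a co-chaperone of the receptor and one of its classic targets, stood at 512 and 959 CPM at day 2, at 238 and 588 CPM at day 4, and at 30.6 and 99.4 CPM at day 6. Its log2 change in the paired fit was -2.75 ± 0.31 (SE, adjusted p = 0.0019). All day 6 values lay below all day 4 values, although the replicates differed from each other on each day.

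*Tsc22d3*, an anti-inflammatory leucine zipper protein, went from 59 and 147 CPM to 30.4 and 50.2 CPM, by -1.25 ± 0.15 in the paired fit (SE, adjusted p = 0.0026). *Zbtb16*, a transcription factor, went from 12 and 10.4 CPM to 3.16 and 3.58 CPM (paired adjusted p = 0.017). *Pdk4*, the kinase that shuts off pyruvate dehydrogenase, went from 109 and 150 CPM to 53.8 and 36.2 CPM (paired adjusted p = 0.0092). The other genes called lower were *Per1*, *Klf9*, *Mt2* and *Glul*, with paired log2 changes between -1.49 and -0.57. *Glul*, glutamine synthetase, overlapped between the days, at 619 and 1695 CPM and then at 376 and 1006 CPM, and its change without pairs turned to 0.15 without day 4 replicate 2. Of the 31-base words of the metallothionein *Mt2*, 58.1% also occur in other genes' transcripts. The list counted 4 genes lower without day 4 replicate 1, 2 without day 4 replicate 2, 6 without day 6 replicate 1 and 4 without day 6 replicate 2. The median of the list was -1.15 in WT and -1 in W330R over the same days. No gene of the list passed the test of a difference between genotypes. The core of the glucocorticoid response element, searched as ACANNNTGT on either strand in the 250 bases before the start site (RefSeq, GRCm38.p6), was in 2 of 13 genes with a window (15.4%, beside 5.88% of 27025 genes), and not in *Fkbp5* or *Per1*.

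Among clock genes, *Per1*, which is also a repressor of the circadian clock, was the 1 of 19 tested that was called, at 147 and 183 CPM at day 4 and 107 and 82.8 CPM at day 6 (paired log2 change -0.79 ± 0.13, SE, adjusted p = 0.013). In the fit without pairs its adjusted p was 0.099. Of 31 genes of the ATF4 response, the program that brings in and makes amino acids, 5 were called lower (beside 0.785% of all genes) and none higher, 16 had both day 6 libraries below both day 4 libraries (beside 13.6% of all genes), and 1 had both above. *Mthfd2*, an enzyme of mitochondrial one-carbon metabolism, went from 130 and 209 CPM to 51 and 72.7 CPM (paired log2 change -1.43 ± 0.18, SE, adjusted p = 0.0042). *Gpt2*, alanine aminotransferase, went from 128 and 217 CPM to 63.1 and 102 CPM (paired adjusted p = 0.0024), and *Asns*, *Gars* and *Cth* were lower by smaller or less precise amounts. The median of the list was -0.34.

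Of 20 tested adipocyte markers 3 were called lower (*Cidec*, *Pnpla2* and *Dgat2*) and none higher, beside 0.785% and 0.778% of all genes. Both day 6 libraries lay below both day 4 libraries for 5 of the 20 and above them for 2, beside 13.6% and 14.9% of all genes. The median log2 change of the markers was -0.39, with -0.52 within replicate 1 and 0.06 within replicate 2, and it turned to 0.13 without day 4 replicate 1. *Pparg*, the master regulator, stood at 42.7 and 53.3 CPM at day 4 and at 47.9 and 43.3 CPM at day 6. *Cebpa*, its partner, stood at 25.6 and 43.9 CPM and then at 15.5 and 28.7 CPM. *Adipoq*, the adipokine adiponectin, stood at 305 and 249 CPM at day 4 and 339 and 453 CPM at day 6. None of Pparg, Cebpa and Adipoq passed either fit.

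Several panel genes for lipid uptake and secretion overlapped between the days. *Fabp4*, a fatty acid binding protein, stood at 1252 and 1585 CPM at day 4 and at 578 and 1656 CPM at day 6. *Lpl*, the lipase that frees fatty acids for uptake, stood at 930 and 393 CPM and then at 406 and 514 CPM, and *Cd36*, a fatty acid receptor, at 6.26 and 3.48 CPM and then at 4.49 and 11.8 CPM. *Plin1*, the perilipin that coats the mature droplet, stood at 35.1 and 58.7 CPM at day 4 and at 46.9 and 14.6 CPM at day 6. The insulin-responsive glucose carrier *Slc2a4*, the adipokine *Retn* and the secreted protease *Cfd* had log2 changes of -0.13, -0.02 and 0.46 and also overlapped. *Lep*, which encodes leptin, had 0, 1, 0 and 0 reads in these libraries and was not tested, and neither was the preadipocyte gene *Dlk1*, with a single read in all 4. The marker list therefore shows cells expressing adiponectin, Fabp4 and Cidec on both days, with leptin at or near 0.

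*Cidec*, which fuses lipid droplets into large ones, stood at 535 and 588 CPM at day 4 and at 263 and 310 CPM at day 6. Its paired log2 change was -0.97 ± 0.17 (SE, adjusted p = 0.025). Of 17 tested droplet proteins, *Cidec*, *Fitm2* and *Abhd5* were called lower, none was called higher, and 7 had both day 6 libraries below both day 4 libraries, where the shares over all genes were 0.785% called lower and 13.6% both below. The median of the droplet list was -0.44. *Pnpla2*, the lipase that starts triglyceride breakdown, went from 670 and 1085 CPM to 400 and 564 CPM (paired log2 change -0.84 ± 0.12, SE, adjusted p = 0.0074). *Abhd5*, its activator, went from 115 and 171 CPM to 56.4 and 103 CPM (paired adjusted p = 0.0019). Both were among the lipolysis genes called lower, and 8 of 16 genes of that list did not overlap in that direction, beside 13.6% of all genes. The median of the lipolysis list was -0.615, with -0.52 within each replicate. *Dgat1* and *Dgat2*, which make triglyceride in its last step, and *Scd2*, a desaturase, were the 3 of 28 genes of fatty acid and triglyceride synthesis that were called, all lower, with paired log2 changes between -0.78 and -0.64. Both day 6 libraries lay below both day 4 libraries for 12 of the 28 genes, beside 13.6% of all genes, and above them for 2. *Fasn*, fatty acid synthase, stood at 305 and 324 CPM and then at 261 and 205 CPM, and *Scd1*, the main desaturase of adipocytes, at 1702 and 2323 CPM and then at 1299 and 1853 CPM. Neither passed.

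In the same cells 4 of 20 genes of insulin signalling were called lower (*Pdk4*, *Hk2*, *Tbc1d4* and *Insr*), and 2 of 24 genes of cholesterol synthesis (*Cyp51* and *Acat2*), with none higher in either list, beside 0.785% of all genes called lower. The insulin receptor *Insr* itself changed by -0.43 ± 0.09 in the paired fit (SE, adjusted p = 0.043), from 103 and 108 CPM to 73.4 and 84.1 CPM. The 74 nuclear genes of the respiratory chain had a median change of -0.01 and no call. The 13 genes of the mitochondrial genome took 3.91% of the counts in day 6 replicate 1 and 5.89% to 6.98% in the other 3 libraries.

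In WT the medians of the synthesis genes, adipocyte markers and lipolysis genes over the same step were 0.25, 0.43 and 0.07, and the test of the difference between genotypes called none of these genes. Between day 4 and day 6 the estimated change was lower in the double mutant than in WT for 27 of 28 synthesis genes, 19 of 20 adipocyte markers and 14 of 16 lipolysis genes. Over all genes tested it was lower for 51%. The lists share members, so their counts are not independent. *Dgat2*, *Gpd1*, *Pck1* and *Thrsp* are both synthesis genes and markers, and *Pnpla2*, *Lipe*, *Adrb3*, *Plin1* and *Aqp7* are both markers and lipolysis genes. The median differences were -0.43, -0.93 and -0.83 on the log2 scale, beside -0.01 for all genes. *Cidec* was at 1000 and 1310 CPM in WT at day 4 and at 1130 and 1590 CPM at day 6, so the change differed by -1.21 ± 0.29 (SE, unadjusted p = 0.0014, adjusted p = 1). *Fasn* was at 460 and 455 CPM and then at 598 and 738 CPM in WT, a difference of changes of -0.98 ± 0.35 (SE, unadjusted p = 0.014, adjusted p = 1). *Acly*, *Slc25a1* and *Thrsp*, which feed or promote fatty acid synthesis, also had an unadjusted p under 0.05, and *Insig1*, a sterol-regulated brake on SREBP processing, had the smallest p among all listed lipid genes (difference -0.92 ± 0.17, SE, unadjusted p = 1e-04, adjusted p = 1). Against W330R the same lists gave median differences of -0.11, -0.24 and -0.16, lower for 19 of 28, 14 of 20 and 12 of 16 genes. A lower change than in WT was not particular to these lists. It was found for 28 of 30 genes of glycolysis and hypoxia and 9 of 10 of the insulin-like growth factor system. So it was for 20 of 24 genes of cholesterol synthesis and 16 of 20 of insulin signalling. Among collagens it was 13 of 25, and among interferon-stimulated genes 2 of 45.

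**Figure D3:**
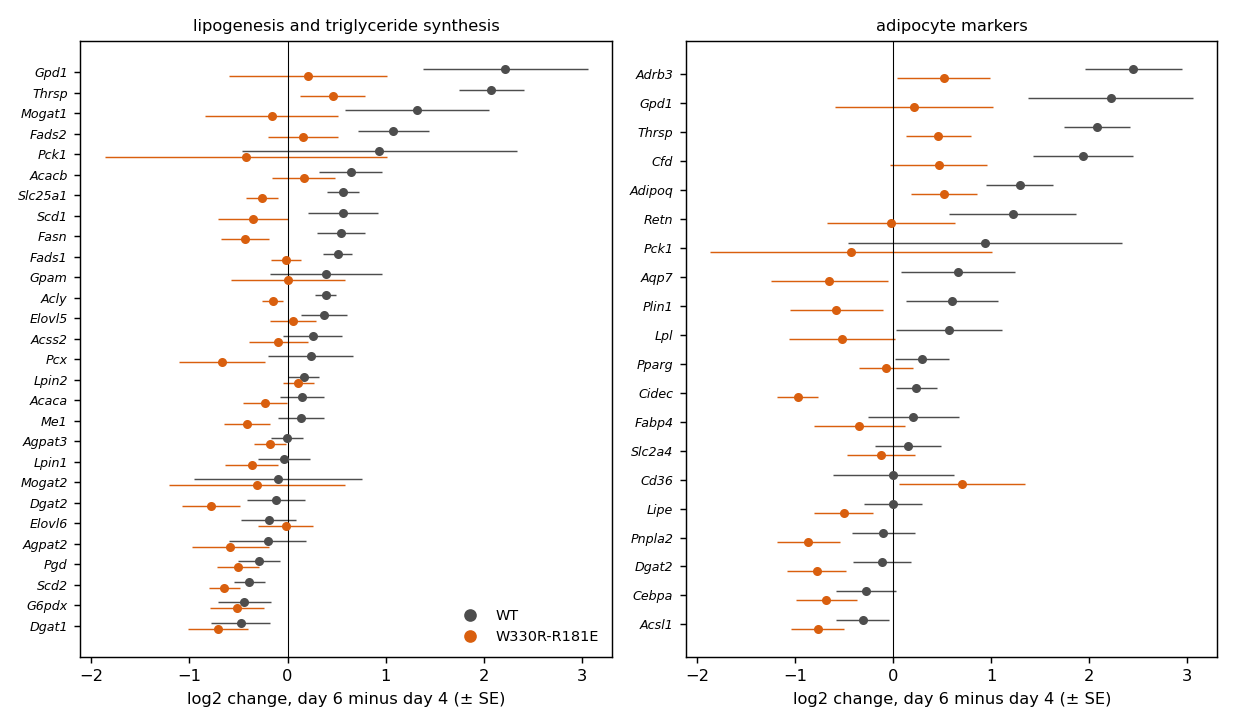
Fitted log2 change from day 4 to day 6 (x axis, bars are SE from the fit of all 22 libraries, 2 libraries a day) for each tested gene of fatty acid and triglyceride synthesis (left) and each adipocyte marker (right), WT in grey and the double mutant in orange, ordered by WT. The double mutant lies left of WT for 27 of 28 and 19 of 20 genes, and no single difference passed the adjusted test.

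Of 42 matrix proteins and proteases 3 were called higher and none lower, and of 25 collagens 4 were called higher and 1 lower, beside 0.778% and 0.785% of all genes, with no call in the fit without pairs. Both day 6 libraries lay above both day 4 libraries for 16 matrix proteins and proteases and for 8 collagens, beside 14.9% of all genes, and the medians were 0.46 and 0.40. *Col3a1*, a fibrillar collagen, went from 928 and 811 CPM to 2255 and 2204 CPM (paired log2 change 1.35 ± 0.22, SE, adjusted p = 0.011). *Col1a2*, *Col15a1* and *Col18a1* were called higher too. *Col6a3*, a chain of the pericellular collagen VI, was called lower, from 1587 and 4326 CPM to 784 and 2280 CPM (paired log2 change -0.97 ± 0.11, SE, adjusted p = 0.0024). *Col1a1*, the chain that pairs with Col1a2 in collagen I, stood at 403 and 445 CPM and then at 1166 and 787 CPM and passed neither fit.

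*Eln*, elastin, went from 84.7 and 25.7 CPM to 258 and 123 CPM (paired log2 change 1.92 ± 0.20, SE, adjusted p = 0.0017), and *Fbln2* and *Adamts5* were the other matrix genes called higher. Of 23 contractile genes *Tpm2*, a tropomyosin, was called higher, from 14.6 and 13.4 CPM to 52.9 and 30.4 CPM, beside 0.778% of all genes. Both day 6 libraries lay above both day 4 libraries for 9 of the 23, beside 14.9% of all genes. *Acta2*, smooth muscle actin, stood at 538 and 233 CPM and then at 826 and 398 CPM. Among 18 adipokines and secreted proteins 1 was called higher and 1 lower, beside 0.778% and 0.785% of all genes. The higher was *Apoe*, the apolipoprotein that carries cholesterol out of cells, which went from 43.9 and 31.4 CPM to 109 and 96.7 CPM, by 1.46 ± 0.13 (SE, paired adjusted p = 0.00074). The collagen count was 0 higher and 1 lower when any 1 of day 4 replicate 1, day 4 replicate 2 or day 6 replicate 1 was left out of the paired fit.

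Genes of mitosis stood higher at day 6, by amounts that no single gene test called. Of 42 tested, 38 had both day 6 libraries above both day 4 libraries, beside 14.9% of all genes, and 42 of 42 estimates were above 0. The median log2 change was 0.74, with 0.69 within replicate 1 and 0.85 within replicate 2, and it stayed between 0.49 and 1.06 when 1 of the 4 libraries was left out of the fit without pairs. *Mki67*, the proliferation antigen, stood at 55.4 and 36.7 CPM at day 4 and at 80.7 and 72.6 CPM at day 6, and *Ccnb1*, the mitotic cyclin B1, at 20.4 and 14.1 CPM and then at 31.5 and 27.2 CPM. *Top2a*, which untangles chromosomes, stood at 70.9 and 59.7 CPM and then at 103 and 104 CPM. Of 45 genes of DNA replication 30 did not overlap in the same direction, beside 14.9% of all genes, and the median was 0.29. *Lig1*, the replicative DNA ligase, was the single one called higher, beside 0.778% of all genes, and none was called lower. The mitosis median was 0.94 in WT and 0.37 in W330R, and the change in the double mutant was below that in W330R for 1 of 42 genes (2.38%, beside 50.2% of all genes) and below that in WT for 34 of 42 (81%, beside 51%), with no call in either.

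Mitotic genes share short promoter elements, the CCAAT box bound by NF-Y and the cell cycle homology region (CHR), bound by the DREAM and MuvB complexes. In the 250 bases before the start site in RefSeq windows (GRCm38.p6), which were found for 34 of the 42 genes, CCAAT on either strand was present in 73.5% and TTTGAA on either strand, the letters searched for CHR, in 29.4%. Among 27025 genes with a window the shares were 34.5% and 16.3%. The sequences of 3 members are shown because their group moved together, with matches to either element in capitals, 5′ to 3′ on the gene's strand. They lie at chr7:135716457-135716582 (minus strand, *Mki67*), chr13:100786534-100786600 (minus strand, *Ccnb1*) and chr4:118437344-118437411 (minus strand, *Cdc20*, which activates the anaphase-promoting complex). A match describes the letters only.
Mki67: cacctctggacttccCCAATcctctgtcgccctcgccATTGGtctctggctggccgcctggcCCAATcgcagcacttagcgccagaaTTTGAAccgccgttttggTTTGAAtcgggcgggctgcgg
Ccnb1: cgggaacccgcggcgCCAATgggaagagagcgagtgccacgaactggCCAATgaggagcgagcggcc
Cdc20: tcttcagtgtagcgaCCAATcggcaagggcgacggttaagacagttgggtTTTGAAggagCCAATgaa

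Interferon-stimulated genes had the largest median of the 45 lists, and 1 library carried it. Their mean log2 CPM was 1.92 and 2.08 at day 4 and 5.73 and 2.36 at day 6, and the value of day 6 replicate 1 was the highest of all 22 libraries. The median log2 change was 2.78 from the fit without pairs, 3.67 within replicate 1 and 0.31 within replicate 2, and it was 0.36 without day 6 replicate 1. In WT it was 0.41 over the same days (0.18 and 0.48 within replicates 1 and 2), and in W330R -0.45 (-0.78 and 0.25). *Ifit1*, an RNA-binding antiviral protein, stood at 4.98 and 2.48 CPM at day 4 and at 307 and 6.28 CPM at day 6. *Isg15*, a ubiquitin-like protein, stood at 1.64 and 0.913 CPM and then at 126 and 1.62 CPM. *Oas2*, which senses double-stranded RNA, stood at 0.243 and 0.0435 CPM and then at 47.8 and 0.325 CPM. In each of these genes the second day 6 library lay far nearer to the day 4 libraries than to the first.

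Both day 6 libraries lay above both day 4 libraries for 25 of the 45 genes, beside 14.9% of all genes, and 45 of 45 estimates were above 0. No gene of this list passed the fit without pairs, and 6 of 45 were called higher in the paired fit, beside 0.778% of all genes. Of these, 4 (*Oas2*, *Oasl2*, *Zbp1* and *Rtp4*) were under 1 CPM in day 6 replicate 2. Without day 6 replicate 1 the paired fit called none, and without day 6 replicate 2 it called 39. *Irf1*, a regulator of the response, stood apart between the days in both replicates, at 22.2 and 24.2 CPM and then at 55.9 and 31.4 CPM (paired log2 change 0.88, adjusted p = 0.031). The interferon gene *Ifnb1* had 0 reads in both day 4 libraries and 1 and 0 reads at day 6. The mean of the list lay between 0.73 and 2.19 in the other double mutant and WT libraries of days 2 to 6, apart from the 2.36 above, and between 2.61 and 5.14 in W330R at those days. Of 13 leukocyte and macrophage markers in the counts, the 6 tested summed to between 15.2 and 19.3 CPM in the 4 libraries. Of the 13, 4 were at 0 in all 4 libraries, and the part of these markers in the result was not tested.

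The interferon-stimulated response element is the promoter sequence through which this pathway acts. Its core was searched as AAANNGAAA on either strand in the same upstream windows, found for 32 of the 45 genes, and was present in 53.1% of them beside 9.53% of all 27025 genes. The windows of *Irf1* and *Oasl2* held no match. The stretches of 2 members with matches are shown as examples of the element, with the matches in capitals. They lie at chr19:34640770-34640827 (plus strand, *Ifit1*) and chr4:156200860-156200910 (minus strand, *Isg15*), where 3 matches overlap.
Ifit1: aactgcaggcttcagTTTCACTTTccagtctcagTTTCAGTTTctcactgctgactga
Isg15: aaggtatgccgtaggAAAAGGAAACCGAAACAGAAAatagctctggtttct

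Of 28 immediate early genes, the first transcripts made after a stimulus, 3 were called higher, beside 0.778% of all genes, none lower and none in the fit without pairs. Both day 6 libraries lay above both day 4 libraries for 18 of 28, beside 14.9% of all genes, and the median change was 1.75 within replicate 1 and 0.41 within replicate 2. *Fos* stood at 104 and 73.4 CPM and then at 577 and 123 CPM, and *Egr1* at 119 and 145 CPM and then at 603 and 211 CPM, and neither passed (paired adjusted p = 0.31 and 0.50). The called genes were *Klf4*, *Ier3* and *Fosl1*, of which *Klf4* went from 28.1 and 22.5 CPM to 59.2 and 44.2 CPM (paired log2 change 1.03, adjusted p = 0.013). The fitted median was 1.16 in WT and 0.81 in W330R. It was 1.12 in the double mutant and 0.34 without day 6 replicate 1.

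Of 21 chemokine and stromal inflammatory genes 4 were called higher and none lower, beside 0.778% and 0.785% of all genes. Both day 6 libraries lay above both day 4 libraries for 7 of the 21 and below them for 1, beside 14.9% and 13.6% of all genes. The median log2 change was 1.04, and it was 0.92 in WT and 0.40 in W330R over the same days. *Ccl2*, which draws in monocytes, stood at 1.46 and 8.18 CPM and then at 6.49 and 34.4 CPM (paired log2 change 2.12 ± 0.31, SE, adjusted p = 0.0074), and *Cxcl1*, which draws in neutrophils, at 0.304 and 8.74 CPM and then at 5.67 and 31.5 CPM. Replicate 2 was above replicate 1 on both days, so the days overlapped and the separation appeared within replicates. *Il1rl1*, a receptor of the interleukin 1 family, did not overlap, at 3.83 and 3.44 CPM and then at 11.1 and 13.5 CPM (paired adjusted p = 0.012), and its adjusted p was 0.099 without pairs. *Vcam1* was the remaining call. *Lcn2*, the secreted lipocalin 2, was the adipokine called lower, from 10.4 and 132 CPM to 3.07 and 27.9 CPM (paired log2 change -2.01, adjusted p = 0.034), with a difference between replicates on each day larger than between days.

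**Figure D4:**
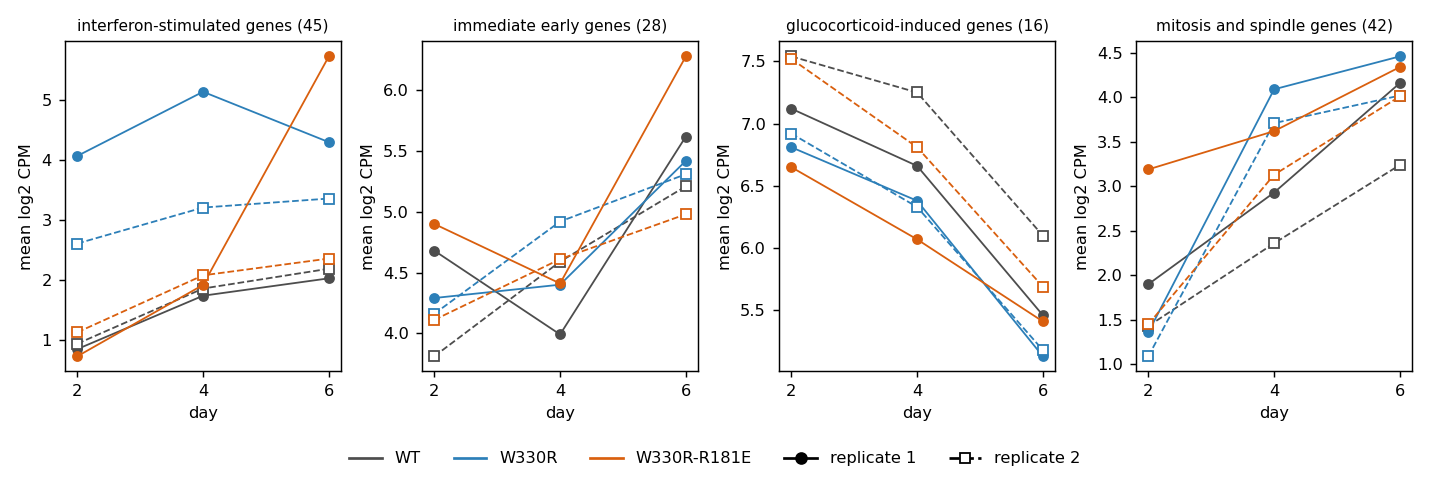
Mean log2 CPM of 4 gene lists at days 2, 4 and 6 in each replicate of WT (grey), W330R (blue) and the double mutant (orange). The interferon list leaps in 1 double mutant library at day 6 (5.73 against 2.36 in the other), whereas the glucocorticoid-induced genes stand lower and the mitosis genes higher at day 6 than at day 4 in both replicates.

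Of 17 tested DNA methylation genes none was called, 8 had both day 6 libraries above both day 4 libraries (beside 14.9% of all genes) and 1 had both below. *Dnmt3a*, which encodes the enzyme named in the genotype labels, stood at 68.5 and 121 CPM at day 4 and at 72.8 and 121 CPM at day 6. Its range over days 4 and 6 was 68.5 to 121 CPM in the double mutant, 105 to 160 CPM in WT and 87.4 to 140 CPM in W330R, and the counts do not tell mutant from normal transcripts. *Dnmt3b*, its relative, stood between 5.7 and 7.05 CPM, and *Dnmt1*, the maintenance enzyme, at 61.6 and 61.1 CPM and then at 86.3 and 69.9 CPM, without overlap (paired adjusted p = 0.31). *Dnmt3l*, the cofactor without catalytic activity, had 2, 0, 1 and 1 reads and was not tested. No gene was called in either fit among these 17 genes, 30 Polycomb subunits, 14 Hox genes, 14 imprinted genes and 10 germline genes, and the list medians lay between -0.06 and 0.12. Of 48 other developmental transcription factors *Osr1* and *Tbx18*, both of mesenchymal progenitors, were called higher, beside 0.778% of all genes, and none was called lower. *Osr1* went from 116 and 64.9 CPM to 199 and 119 CPM (paired log2 change 0.83, adjusted p = 0.016).

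Markers of the other fates open to mesenchymal cells gave no call. The medians were 0.27 for 12 osteoblast markers, 0.10 for 16 chondrocyte markers and 0.44 for 7 skeletal muscle markers. The chondrocyte median was 0.0842 within replicate 1 and 0.495 within replicate 2, and the muscle median was 0.60 within replicate 1 with no change within replicate 2. Of 18 listed muscle markers 10 had at most 3 counts in each of the 4 libraries, and the 7 tested had a mean log2 CPM between -0.62 and 0.42. *Runx2*, the osteoblast regulator, stood at 40 and 35.3 CPM at day 4 and at 53.4 and 47.2 CPM at day 6. The 3 tested of 10 epithelial markers summed to between 0.609 and 2.58 CPM in the 4 libraries, and the 6 tested of 11 endothelial markers to between 16.2 and 30.9 CPM.

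**Figure D5:**
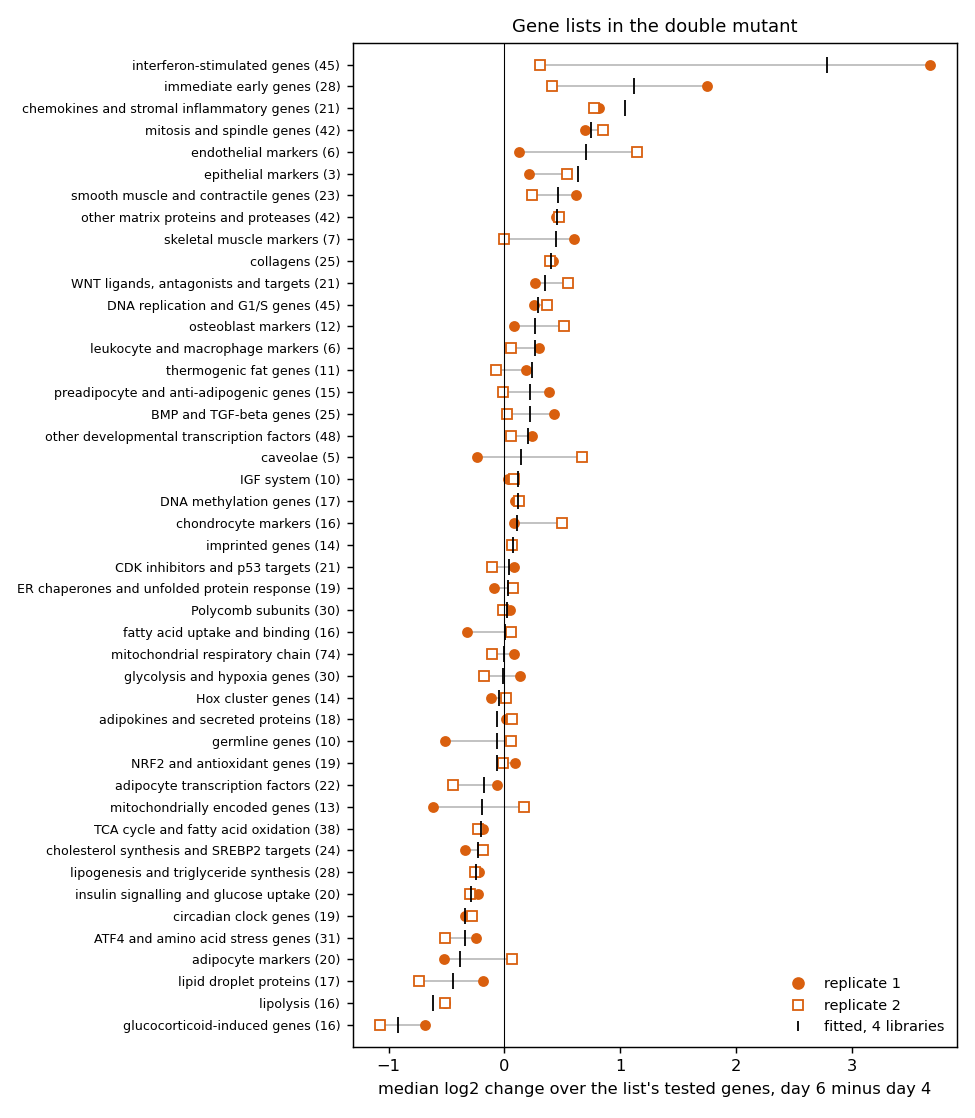
Median log2 change from day 4 to day 6 over the tested genes of each of the 45 lists (number of genes in parentheses) within replicate 1 (filled circle), within replicate 2 (open square) and from the fit of the 4 libraries without pairs (bar). Glucocorticoid-induced genes (-0.92) stand lowest and interferon-stimulated genes (2.78) highest, the latter with 3.67 and 0.31 in the replicates.

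Whether the step itself differed from that of the other genotypes was tested on the difference of the changes, which share no library. Against WT no gene was called and 233 had an unadjusted p under 0.05, while DESeq2 called 4 genes (*Ddx41*, *Insig1*, *Exoc3l4* and *Sbno2*). Against W330R no gene was called and 217 had an unadjusted p under 0.05, while DESeq2 called 2 genes (*Ankrd49* and *Apol9b*). Adding the replicate number left both counts at 0. WT by itself had 47 genes called between day 4 and day 6, 684 in the paired fit, and W330R had 0, 303 in the paired fit. Those counts were not tested against the 3 and 227 of the double mutant.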

How the data were processed

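RNA-seq was done on total RNA of C3H 10T1/2 cells (TriZol, NEBNext Ultra II), and the deposited values are counts per gene symbol, whole numbers, for 30170 symbols in 22 libraries. The submitters' processing notes name kallisto, DESeq2 1.40 and GRCm39 without saying what each did, so it is not given in the sources used here how counts from transcripts were summed. From these counts, genes were kept with filterByExpr of edgeR 4.0.16 (minimum count 10, minimum total 15), which left 14520, and scaled by TMM in R 4.3.3. The quasi-likelihood test was fitted over all 22 libraries with 1 mean per condition, with no replicate block, and p-values were adjusted by Benjamini-Hochberg over all genes kept. The paired fit adds the replicate number within each genotype and its days 2 to 6. The labels do not say what the numbers share. In the double mutant the difference between replicates correlated across genes between day 4 and day 6 with r = 0.203. With 2 replicate numbers, this does not establish pairs, so both fits are given. CPM are TMM-scaled, and fold changes are edgeR's log2 values. DESeq2 1.42.0 was an alternative. The tests were tested on simulated data. This comparison, its members and the gene lists were chosen with earlier results of these data known. Genes were named by rule: up to 12 largest changes in each direction among called genes of one sign in both pairs, a panel of 22 genes, up to 4 called genes or 2 abundant genes per list, and the largest called differences between genotypes. The rule was applied to the calls of the paired fit as well, a step added after seeing the data. *Acly*, *Slc25a1*, *Thrsp*, *Insig1*, *Isg15*, *Ifit1*, *Fos*, *Ccnb1*, *Cdc20*, *Ly6c2* and the genes called by DESeq2 alone were singled out after their values were seen. Promoter windows are from RefSeq (GRCm38.p6), used for their letters only, and no coordinate was carried between builds. Some genes are not reported here.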

Additional observations from a re-analysis of the deposited data

Results flagged for a closer look

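The median change from day 4 to day 6 of the genes of fatty acid and triglyceride synthesis was -0.247 on the log2 scale in the double mutant and 0.246 in WT. It stands out because both replicates of each genotype moved in opposite directions, at -0.217 and -0.251 in the double mutant and at 0.192 and 0.365 in WT. The difference between these medians was not tested, and no gene of the list passed the test of a difference between genotypes.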

How the results depend on the processing

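The count of 3 called genes between day 4 and day 6 depended on the fit. It was 3 with RLE normalization, 128 with DESeq2 and 57 with no filter on low counts. With the 4 libraries alone it was 1, *Ddx41*, and *Ly6c1*, *Perp* and *Fam107a* were not called. It was 10 with a replicate block over all 22 libraries, 227 with the block within genotype and 0 in the 6 double mutant libraries with the block. The replicate numbers are not shown to pair the libraries, so calls lost or gained with the block are not read as weaker or stronger effects. The 3 genes were called again with DESeq2, RLE normalization, no filter and either block over several genotypes. Leaving out 1 library gave 0 to 47 genes, with 47 without day 6 replicate 2 and 15 of these in the interferon list. Inside the paired fit, in an alternative chosen after seeing the data, it gave 37, 60, 184 and 259. The difference from WT called 4 genes with DESeq2 and 0 to 1 with 1 library left out, and the difference from W330R called 2 with DESeq2, 1 with the libraries of the contrast alone and 0 to 1 with 1 left out. With 1 library left out, the lone library of that day is assumed to vary like the other groups. The cause of these changes was not tested.

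Among 82 named genes, 570 of 574 estimates under the other settings kept their direction, as did 622 of 656 with 1 library left out. The 4 exceptions were of *Retn*, at -0.024 as reported, 0.00065 with no filter, 0.097 with the replicate block, 0.17 in the 6 double mutant libraries, 0.13 with the block within genotype, -0.61 to 0.91 with 1 library left out, and 0.53 and 0.92 where the block within genotype was kept. With 1 library left out the log2 change changed sign in these genes, and ran for *Cd36* from -0.11 to 1.29, *Col15a1* from -0.16 to 2.18, *Col2a1* from -1.05 to 2.09, *Dnmt3a* from -0.38 to 0.49, *Dnmt3b* from -0.14 to 0.17, *Fabp4* from -1.30 to 0.22, *Glul* from -1.62 to 0.15, *Insig1* from -0.087 to 0.24, *Lcn2* from -4.54 to 0.49, *Lpl* from -1.02 to 0.23, *Pparg* from -0.22 to 0.089, *Slc2a4* from -0.40 to 0.19 and *Vcam1* from -0.084 to 1.45. Inside the block within genotype it turned to *Cd36* -0.72, *Col2a1* -0.53, *Dnmt3a* -0.022, *Dnmt3b* -0.037 and -0.14, *Fabp4* 0.20, *Insig1* -0.059, *Lpl* 0.45, *Mki67* -0.017, *Plin1* 0.051 and 0.26, *Pparg* 0.13 and 0.081 and *Slc2a4* 0.14. No fold is given for *Rtp4* and *Zbp1*, which were at 0 in 3 of the 4 libraries. Day 6 replicate 2, with the fewest counts, limits the precision of low genes.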

Other observations

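*Ddx41*, a DEAD-box helicase, was singled out after its values were seen. It stood at 0.79 and 0.565 CPM at day 4 and at 28.2 and 29.7 CPM at day 6 of the double mutant, and was called higher in the paired fit (log2 change 5.43, adjusted p = 0.016). It was also the single gene called by edgeR with the 4 libraries alone (log2 change 5.42, adjusted p = 0.03). The other libraries with more than 10 CPM were WT day 2 replicate 2 (17.4), WT day 4 replicate 2 (18.1) and W330R day 2 replicate 2 (13.6), so the gene switched between a low and a high level within replicates of 1 condition too. Of its 31-base words, 13.9% also occur in transcripts of other genes.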
